A study of Mus musculus with 3 samples.

Results

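Chemokine ligand genes were examined in RNA-seq libraries of 3 mouse pancreatic tumour cell lines. The genes were taken by symbol, as every table entry beginning with Ccl, Cxcl, Cx3cl or Xcl followed directly by a number, which gave 39 of 22734 genes analysed. The lines belong to a progression model named HI-Panc and stand for a localized stage (HI-Panc-L), an invasive stage (HI-Panc-I) and a metastatic stage (HI-Panc-M), with 1 library each. All 3 came from transgenic mice labelled as carrying a K-ras allele together with p16-/-, and were described as arising without immortalization and grown as cultures. The treatment text, the same for all 3, describes cobalt chloride, a chemical mimic of hypoxia, at 100 ng/ml for 24 h. Whether the RNA sequenced was from treated cells is not stated, and no untreated partner was analysed here. By tissue label the localized line is from body wall, the invasive line from pancreatic tissue and the metastatic line from liver, so the labelled site of the localized line is not the pancreas. Groups follow the stage label, and whether stage and tissue labels were exchanged between lines was not tested; the direction of each comparison rests on the stage label. Ages, passage numbers and clonality are not given in the sources used here.

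Chemokines are small secreted proteins, a few of them tethered to the membrane, that guide leukocytes along gradients by binding G protein-coupled receptors. Ligands named CXC that bind CXCR2 attract neutrophils, ligands of CCR2 attract monocytes, and interferon-induced ligands of CXCR3 attract activated T cells and NK cells. In pancreatic tumours, both the carcinoma cells and the surrounding fibroblasts are known to make chemokines, and these help to set which myeloid and lymphoid cells enter the tumour. Transcription of many inflammatory chemokines is driven by NF-kB, and that of others by interferon signalling.

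The values are FPKM (fragments per kilobase of transcript, scaled to library size), which are per length, so levels of different genes can be set side by side. Differences are given in log2(FPKM + 1), which understates the change of low genes, and plain ratios of FPKM are named as such. A gene was called higher or lower where it averaged at least 1 FPKM over the 3 libraries and differed by at least 1 on the log2 scale (2-fold). Each stage has 1 library (n = 1), so differences could not be set against a spread between replicates and were not tested; each statement is about 3 libraries, not about the stages as such. Where a ratio carries an interval, it is a 95% exact Clopper-Pearson interval on estimated fragments and covers counting error only.

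The libraries were of similar depth, estimated from whole-fragment steps at 42.1, 37.7 and 40.0 (in units of 1e6 fragments) for localized, invasive and metastatic. Leukocyte markers were low, summing to 1.78, 5.02 and 5.83 FPKM over 4 genes, of which Laptm5 held 4.90 FPKM in the metastatic library. The pan-leukocyte marker Ptprc had 0.0172, 0.197 and 0.0690 FPKM in that order, and all 9 markers of T, B and NK cells were at 0 in the invasive and metastatic libraries, as were 6 of them in the localized library. Macrophage markers summed to 91.5, 158 and 97.6 FPKM over 6 genes, with Lyz2 at 0, 0.0276 and 0 FPKM, Csf1r at most 0.138 and Itgam at most 0.275 FPKM. Of the other macrophage markers, Cd14 had 84.8, 139 and 80.3 FPKM and Cd68 had 4.82, 10.5 and 9.93 FPKM, both within 2-fold in log2(FPKM + 1). Mrc1 had 1.90, 8.36 and 7.03 FPKM, higher in both comparisons with the localized library. Neutrophil markers summed to at most 0.371 FPKM, endothelial markers to at most 0.621 FPKM and hepatocyte markers to at most 0.0586 FPKM. Of 5 acinar markers, only Cela1 exceeded 0.1 FPKM, with 7.24, 1.13 and 0.323 FPKM. Ductal and epithelial markers summed to 1213, 6413 and 6909 FPKM, and in the localized library Krt7 was at 0.793 and Epcam at 0.209 FPKM beside 765 FPKM of Krt8, so some defining markers of a ductal cell were below 1 FPKM there. Fibroblast markers ran the other way, with sums of 448, 81.8 and 7.37 FPKM over 8 genes, and Lum, Fap and Thy1 were at 0 in the metastatic library. In bulk samples, fewer cells of a type and less RNA per cell cannot be told apart.

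Of the 39 chemokine ligand genes, 18 reached 1 FPKM in at least 1 library, 13 were above 0 but below 1 FPKM throughout, and 8 were at 0 in every library. Those at 0 were Ccl6, Ccl12, Ccl21a, Ccl21b, Ccl21c, Ccl24, Ccl26 and Ccl27b. Chemokine genes at 1 FPKM or more numbered 17 in localized, 14 in invasive and 13 in metastatic cells. Over all 22734 genes, 11219, 11165 and 11112 were at 1 FPKM or more in that order. Any value above 0 was listed for 30, 24 and 23 of the 39 chemokine genes, against 73.2%, 69.6% and 70.3% of all genes. Of the 13 low genes, 7 were above 0 in the localized library alone, while 1 was above 0 in the invasive library alone and 0 were so in the metastatic library. The 7 rest on an estimated 1 to 11 fragments each. The share of all genes above 0 in a single library was not computed. The localized library was the deepest by estimate and had the most genes above 0, so the counts above 0 are not read as a trait of the chemokine genes. The counts at 1 FPKM were not tested and are not read as such a trait either. The filter on the mean kept 17 genes. Just inside it lay Ccl9 and Ccl28, with means of 1.01 and 1.09 FPKM, and just outside lay Ccl17, with 0.967 FPKM.

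Relative to the localized library, the invasive library had 4 chemokine genes higher of the 17 past the filter (and of 39 in all), namely Ccl20, Cxcl3, Cxcl5 and Cxcl16, where 8.78% of the 11404 genes past the filter were higher. It had 6 of these 17 lower, namely Ccl2, Ccl5, Ccl7, Ccl25, Cxcl10 and Cxcl12, where 6.07% of the 11404 were lower. The other 22 chemokine genes did not pass the filter and could not be called. The metastatic library against the localized library had the same 4 genes higher, where 9.08% of the 11404 were higher, and the same 6 lower, where 7.29% were lower. These comparisons share the localized library and are not independent of each other. Between the metastatic and the invasive library, 0 of the 17 were higher and 1, Ccl2, was lower, where 1.33% and 1.67% of the 11404 were higher and lower. The remaining 7 of the 17 genes past the filter, which were Ccl8, Ccl9, Ccl27a, Ccl28, Cx3cl1, Cxcl1 and Cxcl2, lay within 2-fold in log2(FPKM + 1) in every comparison. The median log2 difference over the 17 genes was -0.64 between the invasive and localized libraries, -0.21 between metastatic and localized, and -0.07 between metastatic and invasive. Over all genes past the filter these medians were 0.00, 0.00 and -0.01.

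**Figure D1:**
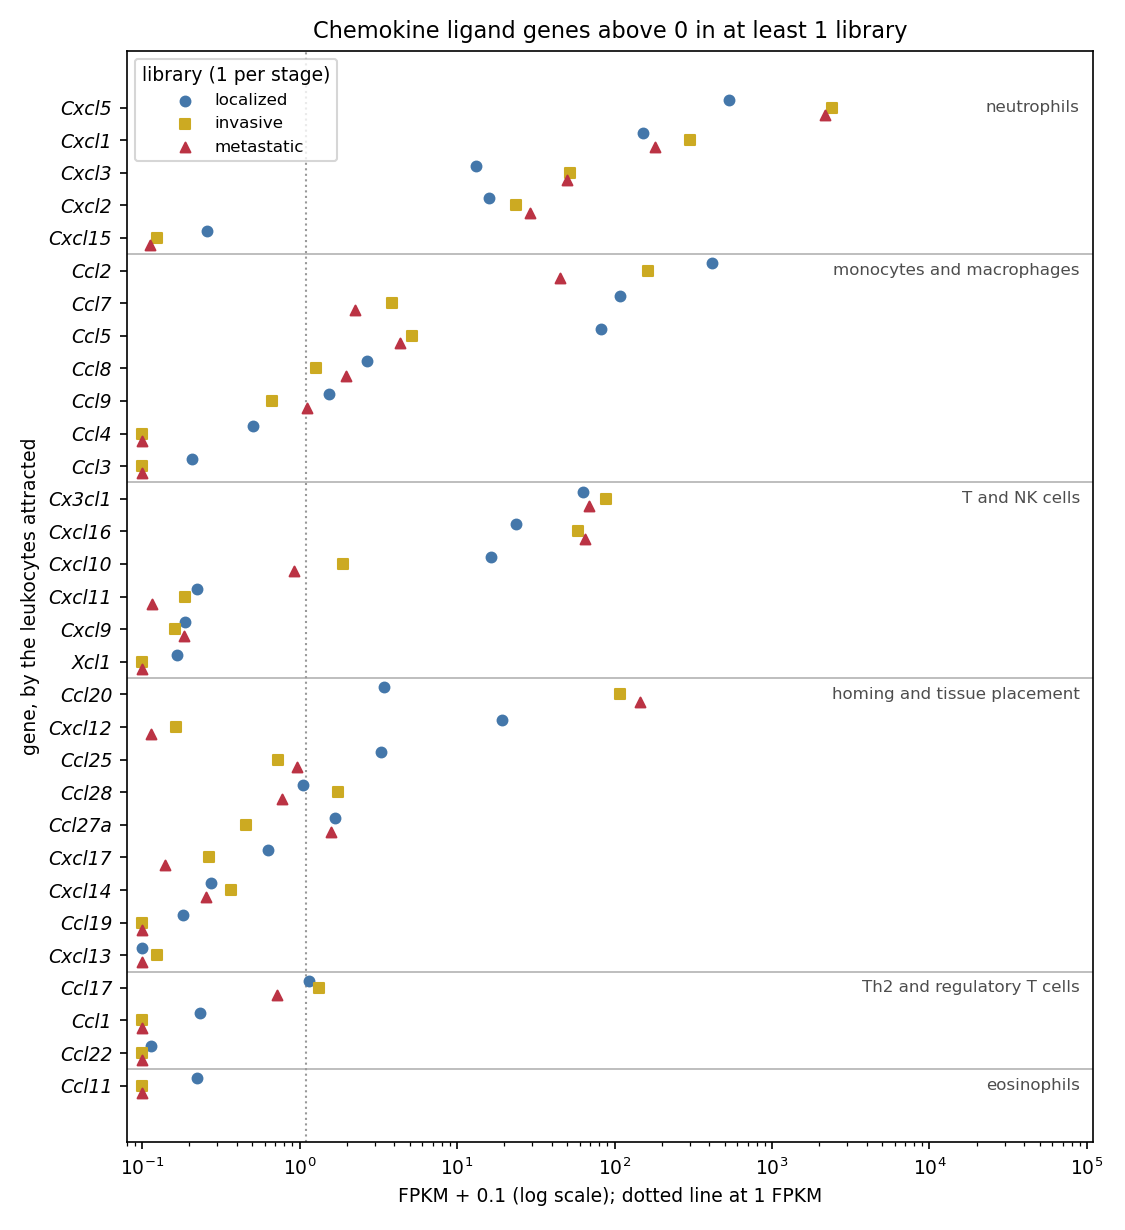
FPKM + 0.1 on a log scale for the 31 chemokine ligand genes above 0 in at least 1 library, 1 point per library, grouped by the leukocytes attracted; the dotted line marks 1 FPKM. Cxcl5 is the most abundant of these genes in all 3 libraries, at 533, 2399 and 2161 FPKM for localized, invasive and metastatic, and Ccl7, Ccl5 and Cxcl12 have their blue localized points far to the right of the others.

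The sequences before the transcription starts are shown for 6 genes, of which Ccl20 and Cxcl3 were higher, Cxcl1 and Cxcl2 within 2-fold, and Cxcl10 and Cxcl12 lower in the invasive and metastatic libraries. They are 4 of the called genes with an entry, shown together with Cxcl1 and Cxcl2 because these hold the same NF-kB match as Cxcl3. The display was thus chosen in part on the motif. Ccl25, also called lower and with an entry, is not shown, and its window held no NF-kB or ISRE match. They are from RefSeq on GRCm38.p6, in a table with entries for 27 of the 39 genes. The genes without an entry were Ccl2, Ccl4, Ccl5, Ccl7, Ccl11, Ccl21c, Ccl24, Ccl26, Cxcl5, Cxcl11, Cxcl16 and Cxcl17. Each line gives the 250 bases before the start, 5′ to 3′ on the gene's strand. Capitals mark letters that match the NF-kB consensus or, in Cxcl10, also the core of an interferon-stimulated response element (ISRE), TTTCNNTTTC, on either strand.
Cxcl1 (chr5:90890995-90891244, plus strand): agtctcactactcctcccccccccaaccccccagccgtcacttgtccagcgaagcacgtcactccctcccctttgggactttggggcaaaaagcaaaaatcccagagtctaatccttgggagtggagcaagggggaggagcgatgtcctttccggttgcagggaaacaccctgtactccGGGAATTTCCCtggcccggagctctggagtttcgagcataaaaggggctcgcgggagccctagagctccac
Cxcl2 (chr5:90903649-90903898, plus strand): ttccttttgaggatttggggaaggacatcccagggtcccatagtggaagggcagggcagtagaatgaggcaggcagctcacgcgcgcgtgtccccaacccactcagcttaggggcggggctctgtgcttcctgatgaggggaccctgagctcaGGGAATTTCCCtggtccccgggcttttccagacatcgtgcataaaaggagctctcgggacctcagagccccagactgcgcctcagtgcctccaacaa
Cxcl3 (chr5:90785851-90786100, plus strand): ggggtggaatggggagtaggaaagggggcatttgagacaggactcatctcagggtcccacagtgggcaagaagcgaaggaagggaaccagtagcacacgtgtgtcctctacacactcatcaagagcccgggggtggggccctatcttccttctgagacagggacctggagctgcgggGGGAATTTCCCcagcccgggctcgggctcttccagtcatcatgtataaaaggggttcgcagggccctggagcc
Ccl20 (chr1:83116516-83116765, plus strand): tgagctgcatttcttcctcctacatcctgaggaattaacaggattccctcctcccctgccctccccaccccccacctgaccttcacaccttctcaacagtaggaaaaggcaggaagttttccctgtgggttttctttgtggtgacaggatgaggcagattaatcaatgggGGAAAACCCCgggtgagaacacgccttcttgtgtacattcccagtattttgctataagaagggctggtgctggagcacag
Cxcl10 (chr5:92348890-92349139, minus strand): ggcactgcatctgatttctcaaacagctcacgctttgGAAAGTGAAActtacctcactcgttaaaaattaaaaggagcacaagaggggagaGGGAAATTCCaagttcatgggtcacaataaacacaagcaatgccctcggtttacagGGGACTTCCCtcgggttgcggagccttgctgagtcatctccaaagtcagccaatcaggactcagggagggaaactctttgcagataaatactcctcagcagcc
Cxcl12 (chr6:117168285-117168534, plus strand): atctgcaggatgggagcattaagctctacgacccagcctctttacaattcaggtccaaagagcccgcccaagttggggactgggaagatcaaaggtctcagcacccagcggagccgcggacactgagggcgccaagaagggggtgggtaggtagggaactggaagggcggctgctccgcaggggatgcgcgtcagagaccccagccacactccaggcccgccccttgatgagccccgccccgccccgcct
The NF-kB consensus was matched in 3.90% of 32851 promoter windows of this length in the same table, and in 6 of the 27 chemokine genes with an entry, namely Ccl9, Ccl20, Cxcl1, Cxcl2, Cxcl3 and Cxcl10. Cxcl1, Cxcl2 and Cxcl3 held the same decamer, GGGAATTTCC, from base -71 to -62, -97 to -88 and -73 to -64 from the start. Each of these also matched on the opposite strand, shifted by 1 base, which is why 11 capitals stand together. In Ccl20 the match, GGGGTTTTCC, read on the opposite strand from -80 to -71. Cxcl10 held 2 NF-kB matches, GGGAAATTCC from -159 to -150 and GGGACTTCCC from -103 to -94, and 1 ISRE match on the opposite strand from -213 to -204. The ISRE core occurred in 2.98% of all windows and in 3 of the 27 genes, which were Ccl19, Cxcl10 and Cxcl14. The Cxcl12 window held neither. A TATA box, TATAAA, was found on either strand in 10 of the 27 genes and 12.4% of all windows, and an AP-1 motif, TGANTCA, in 4 genes and 6.75% of all windows. The shares over all windows count windows, while the chemokine figures count genes with a match in any window, so the units differ. A match is a description of letters and not a site of binding. Of the 6 genes with an NF-kB match, Ccl20 and Cxcl3 were called higher and Cxcl10 lower in the invasive and metastatic libraries, and Ccl9, Cxcl1 and Cxcl2 were called in no comparison.

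Genes for neutrophil attractants held the largest share of summed chemokine FPKM, and of the 4 past the filter, Cxcl5 and Cxcl3 were higher in the invasive and metastatic libraries and 0 were lower. Cxcl5, a ligand of CXCR2 made by epithelial cells, had 533 FPKM in localized, 2399 in invasive and 2161 in metastatic cells. It was far above every other chemokine in the invasive and metastatic libraries, ranking 17 and 21 among all genes there, and ranked 153 in the localized library. On the log2 scale it was 2.17 higher in the invasive and 2.02 higher in the metastatic than in the localized library, and its FPKM ratios were 4.50 and 4.05. Cxcl3, another CXCR2 ligand, had 13.0, 52.2 and 50.1 FPKM in the same order. The localized library was again the low one, with log2 differences of 1.92 for invasive and 1.86 for metastatic against it.

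Cxcl1, the mouse neutrophil chemoattractant also known as KC, had 152, 302 and 181 FPKM in the localized, invasive and metastatic libraries. It was highest in the invasive library, and its log2 difference from the localized library, 0.99, stopped just short of the 2-fold rule. The metastatic library was 0.25 higher than the localized and 0.74 lower than the invasive library on that scale. Cxcl2, a close relative of Cxcl1, had 16.0, 23.6 and 28.9 FPKM. Its log2 differences, 0.54 for invasive and 0.82 for metastatic against localized, also stayed within 2-fold. Cxcl15, an attractant known in mouse from lung epithelium, had only 0.157, 0.0249 and 0.0118 FPKM, which corresponds to about 14, 2 and 1 fragments. Cxcl1, Cxcl2 and Cxcl3 are similar in sequence, and how the authors divided reads shared between them is not stated.

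These genes lie together on chromosome 5 (GRCm38, chr5:90759360-90905938), in the order Cxcl5, Cxcl3, Cxcl15, Cxcl1 and Cxcl2 on the plus strand. Between Cxcl5 and Cxcl3 the annotation places Ppbp (chr5:90768518-90770063) and Pf4 (chr5:90772435-90773383), 2 chemokines whose symbols do not follow the naming pattern. Ppbp, a precursor of neutrophil-activating peptide known from platelets, had 0.631, 21.0 and 45.9 FPKM in localized, invasive and metastatic. Pf4, platelet factor 4, had 0.161, 5.65 and 9.80 FPKM. Invasive and metastatic values of both genes were called higher than the localized ones, with log2 differences of 3.75 and 4.85 for Ppbp and 2.52 and 3.22 for Pf4. Unlike the other genes of this stretch that were called, Ppbp was also called higher in the metastatic than in the invasive library, with an FPKM ratio of 2.19. Within 1 stretch of chromosome, the log2 difference between the metastatic and localized libraries thus ran between 4.85 for Ppbp and 0.25 for Cxcl1, with Cxcl15 near 0 FPKM.

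**Figure D2:**
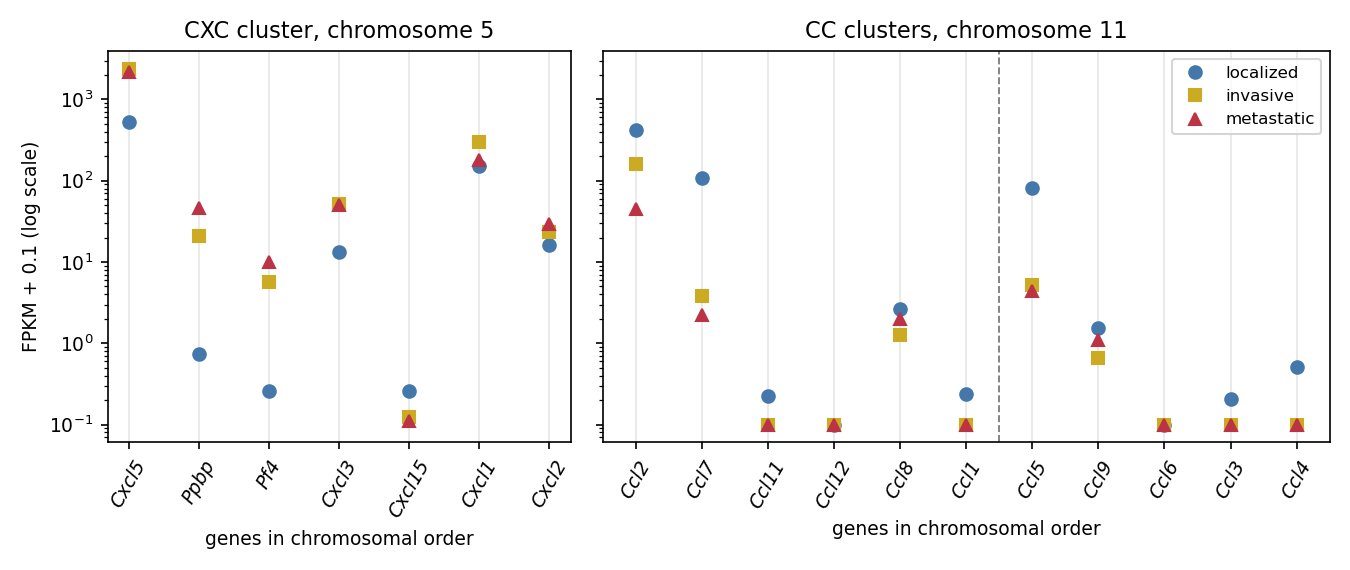
FPKM + 0.1 on a log scale for chemokine genes in their chromosomal order, with 1 point per library; left, the chromosome 5 stretch with Ppbp and Pf4 included, and right, the chromosome 11 stretches, separated by a dashed line. On chromosome 5 the localized library is lowest for every gene except Cxcl15, and on chromosome 11 Ccl2, Ccl7 and Ccl5 stand out in the localized library, at 417, 109 and 81.4 FPKM, among neighbours below 3 FPKM.

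Of the 5 genes for attractants of monocytes and macrophages that passed the filter, Ccl2, Ccl7 and Ccl5 were lower in the invasive and metastatic than in the localized library, and 0 were higher. Ccl2, the main ligand of CCR2, had 417 FPKM in localized, 162 in invasive and 45.0 in metastatic cells. Among the 39 genes it was the only one called in all 3 comparisons, stepping down along the labelled stages. The log2 difference from the localized library was -1.36 for invasive and -3.18 for metastatic, and the metastatic library differed from the invasive by -1.83. In the same order, the FPKM ratios were 0.389 (0.377 to 0.402), 0.108 (0.102 to 0.114) and 0.277 (0.261 to 0.294).

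Ccl7, another ligand of CCR2, had 109 FPKM in localized, 3.76 in invasive and 2.15 in metastatic cells. Its localized value stood further above the others than that of its neighbour Ccl2, with log2 differences of -4.53 for invasive and -5.12 for metastatic against localized. Ccl5, which attracts T cells and monocytes, had 81.4, 5.11 and 4.25 FPKM. Here too the localized library stood alone, at log2 differences of -3.75 for invasive and -3.97 for metastatic against it. The metastatic and invasive libraries were within 2-fold of each other for both genes, at -0.59 for Ccl7 and -0.22 for Ccl5.

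The other members of this group were low. Ccl8 had 2.57, 1.17 and 1.87 FPKM and Ccl9 had 1.44, 0.565 and 1.01 FPKM in the localized, invasive and metastatic libraries. Both were lowest in the invasive library, and neither passed 2-fold in log2(FPKM + 1) in any comparison. Their plain FPKM ratios of invasive over localized were further apart, at 0.455 (0.274 to 0.773) for Ccl8 and 0.391 (0.289 to 0.522) for Ccl9. Ccl3 and Ccl4, known from activated macrophages, had 0.107 and 0.410 FPKM in the localized library, by estimate 3 and 11 fragments, and were at 0 in the others. Ccl6 and Ccl12 were at 0 throughout.

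The group lies in neighbouring stretches of chromosome 11. Ccl2 (chr11:82035571-82037453), Ccl7 (chr11:82045712-82047525), Ccl11, Ccl12, Ccl8 and Ccl1 fall within chr11:82035571-82305690, and Ccl5, Ccl9, Ccl6, Ccl3 and Ccl4 within chr11:83525778-83664683. Ccl2 and Ccl7 are direct neighbours, and both were high in the localized library. Ccl11, the next gene along, had 0.122 FPKM there, so the high values stopped after Ccl7.

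Genes for attractants of T and NK cells were called in different directions. Cxcl10, an interferon-induced ligand of CXCR3, had 16.3 FPKM in localized, 1.79 in invasive and 0.824 in metastatic cells. Its log2 differences were -2.63 for invasive and -3.24 for metastatic against localized. The other ligands of CXCR3 were near 0 in every library, with 0.0882, 0.0622 and 0.0843 FPKM for Cxcl9 and 0.124, 0.0862 and 0.0163 FPKM for Cxcl11. These 3 genes are adjacent on chromosome 5 (chr5:92321347-92365485), and only Cxcl10 reached 1 FPKM. Cxcl10 overlaps Art3 on the opposite strand, which was at 0 in every library.

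Cxcl16, a membrane-bound ligand of CXCR6, went the other way, with 23.7, 58.8 and 64.7 FPKM in localized, invasive and metastatic. Its log2 differences from the localized library were 1.27 for invasive and 1.41 for metastatic, and it was called higher in both. Its exons overlap those of Zmynd15 on the opposite strand, and Zmynd15 ran in parallel at 2.28, 6.92 and 7.42 FPKM. Use of strand in counting is not stated, so reads of such a pair cannot be told apart where they overlap. Cx3cl1, or fractalkine, the other membrane-bound chemokine, had 63.0, 88.0 and 68.9 FPKM. It was among the most even members, with FPKM ratios of 1.40 (1.36 to 1.44) for invasive and 1.09 (1.06 to 1.13) for metastatic over localized. Xcl1, which attracts cross-presenting dendritic cells, had 0.0679 FPKM in the localized library, about 1 fragment, and was at 0 in the others.

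Among genes for homing and placement of leukocytes in tissues, Ccl20 and Cxcl12 differed most, in opposite directions. Ccl20, the ligand of CCR6, which attracts immature dendritic cells and Th17 cells to epithelia, had 3.35 FPKM in localized, 108 in invasive and 145 in metastatic cells. It was the chemokine with the largest positive difference from the localized library, 4.65 for invasive and 5.07 for metastatic on the log2 scale. The FPKM ratios were 32.4 (28.1 to 37.4) and 43.3 (37.6 to 50.03). Its rank among all genes was 9562 in localized, 821 in invasive and 582 in metastatic cells. Ductal and epithelial markers moved with Ccl20 and Cxcl5: of 8 listed, 6 were called higher in the invasive and 7 in the metastatic than in the localized library. Over all genes past the filter, 8.78% and 9.08% were higher in these comparisons. Among the markers called was Krt19, at 181, 1970 and 2365 FPKM in localized, invasive and metastatic. The part of epithelial cell content in the Ccl20 and Cxcl5 values was not tested.

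Cxcl12, the ligand of CXCR4 known from stromal cells, had 19.3, 0.0643 and 0.0135 FPKM in localized, invasive and metastatic. By estimate these are about 4570, 14 and 3 fragments. Its log2 differences were -4.25 for invasive and -4.32 for metastatic against localized. The FPKM ratio of invasive over localized was 0.00333 (0.00187 to 0.00575). The fibroblast markers given above moved with Cxcl12: 5 of 8 passed the filter, and all 5 were lower in the invasive and in the metastatic than in the localized library. Over all genes past the filter, 6.07% and 7.29% were lower in these comparisons. Among the 5 were the receptor gene Pdgfra at 42.7, 1.09 and 1.97 FPKM and the proteoglycan gene Dcn at 54.4, 0.0710 and 0.0142 FPKM. The part of fibroblast-like cells in the Cxcl12, Ccl2 and Ccl7 values was not tested.

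Ccl25, the ligand of CCR9 in gut homing, had 3.21, 0.629 and 0.863 FPKM and was called lower in both comparisons with the localized library, at log2 differences of -1.37 for invasive and -1.18 for metastatic. Its exons overlap Elavl1 on the opposite strand, which had 16.9, 17.4 and 19.0 FPKM. Ccl27a, a ligand of CCR10 known from skin, had 1.59, 0.354 and 1.47 FPKM. The invasive library was low, with log2 differences of -0.94 against localized and 0.87 for metastatic against invasive, while the FPKM ratios were 0.222 (0.104 to 0.424) and 4.17. It overlaps Il11ra1 on the opposite strand, at 6.66, 2.62 and 4.11 FPKM, and has a near copy, Ccl27b. Ccl28, a mucosal ligand of CCR10, had 0.945, 1.66 and 0.678 FPKM and was highest in the invasive library, within 2-fold throughout in log2(FPKM + 1). Its plain FPKM ratio of metastatic over invasive was 0.408 (0.318 to 0.515). Cxcl14 had at most 0.265 and Cxcl17 at most 0.527 FPKM. Ccl19 and Cxcl13, which place lymphocytes in lymphoid organs, had at most 0.0809 and 0.0247 FPKM, and the genes for the CCR7 ligand Ccl21 were at 0.

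Genes for attractants of Th2 cells, regulatory T cells and eosinophils were close to the detection limit. Ccl17, a ligand of CCR4, had 1.05, 1.23 and 0.619 FPKM in localized, invasive and metastatic, about 23, 24 and 13 fragments. The interval of each ratio between libraries, such as 0.277 to 1.22 for metastatic over localized, included a ratio of 1. Ccl22, the other ligand of CCR4, had 0.0134 FPKM in the localized library and 0 in the others, and Ccl1 and Ccl11 likewise had 0.134 and 0.122 FPKM in the localized library alone. The lowest values rest on single fragments, so a 0 beside them does not show a difference at this depth.

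**Figure D3:**
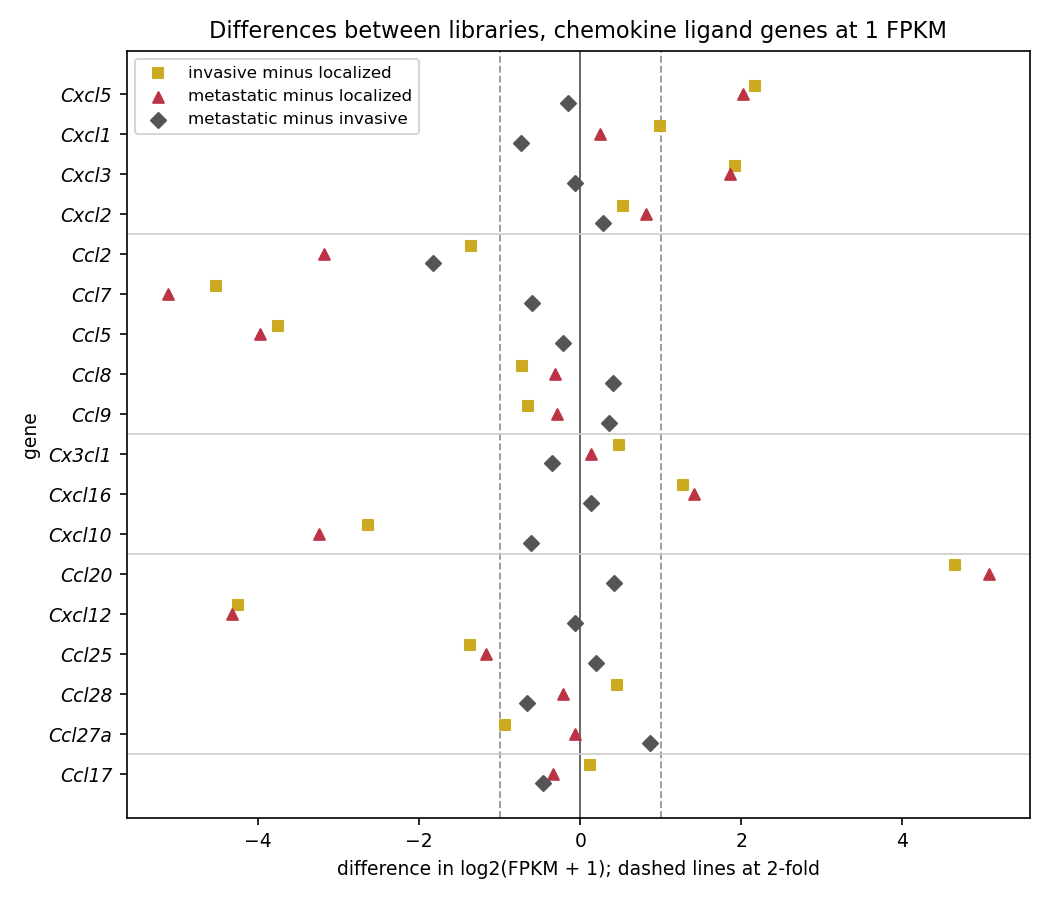
Difference in log2(FPKM + 1) between libraries for the 18 chemokine ligand genes that reached 1 FPKM, grouped by the leukocytes attracted, with dashed lines at 2-fold; squares are invasive minus localized, triangles metastatic minus localized and diamonds metastatic minus invasive. Squares and triangles lie together far from 0 for Ccl20, Ccl7, Ccl5 and Cxcl12, and only the diamond of Ccl2, at -1.83, lies beyond a dashed line.

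Summed over all 39 genes, chemokine FPKM came to 1459.6 in localized, 3211 in invasive and 2758 in metastatic cells, or 0.255%, 0.558% and 0.488% of each library's summed FPKM. Cxcl5 alone held 36.6%, 74.7% and 78.3% of these sums. Without Cxcl5 the sums were 926, 812 and 597 FPKM, so that the localized library, lowest with Cxcl5, was highest without it, and the higher total of the invasive and metastatic libraries rests on that gene. Neutrophil attractants held 49.0%, 86.5% and 87.8% of the chemokine sum in localized, invasive and metastatic. Attractants of monocytes and macrophages held 41.9%, 5.38% and 1.97%. T and NK cell attractants held 7.08%, 4.63% and 4.88%, and homing chemokines 1.998%, 3.47% and 5.37%. In the homing group the leading gene changed as well, since Cxcl12 held 66.1% of it in the localized library and Ccl20 held 97.2% and 97.8% in the invasive and metastatic libraries.

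**Figure D4:**
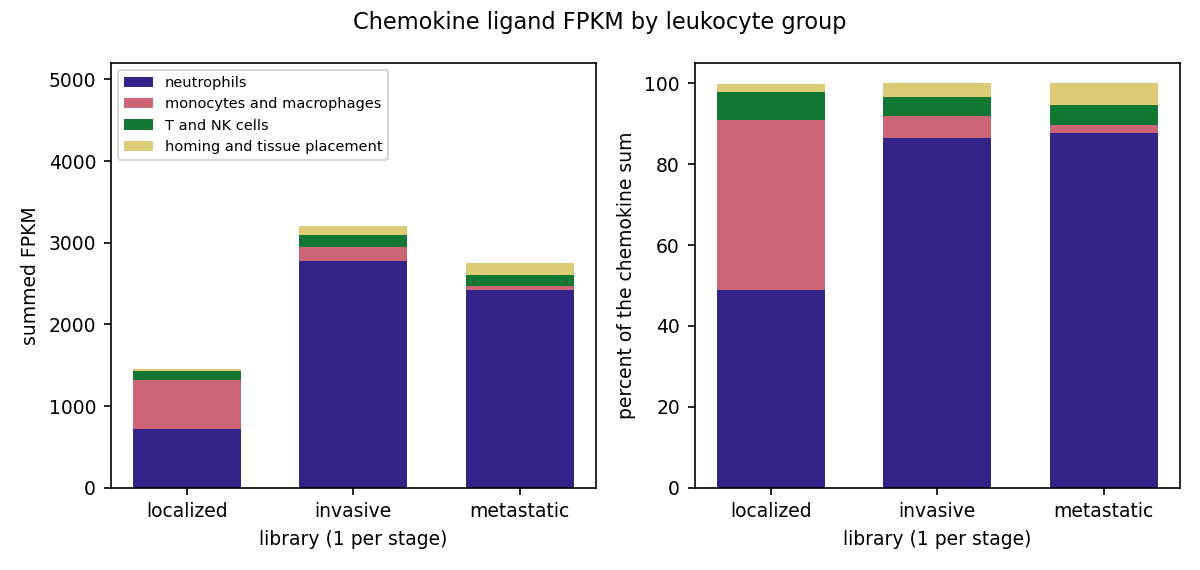
Chemokine FPKM summed by leukocyte group in each library, left as FPKM and right as a percentage of the sum over all 39 genes; the Th2 and eosinophil groups, under 0.1% together, are not drawn. The share of monocyte and macrophage attractants is 41.9% in localized, 5.38% in invasive and 1.97% in metastatic cells.

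Receptor genes for these ligands were at low levels. None of 18 G protein-coupled chemokine receptor genes passed the filter, and their FPKM summed to 1.70, 0.816 and 1.07 in localized, invasive and metastatic. The highest single value was 0.370 FPKM, for Cxcr6 in the localized library. Cxcr2, the receptor for Cxcl1, Cxcl2, Cxcl3 and Cxcl5, had 0.359, 0.118 and 0.144 FPKM, Ccr6, the receptor for Ccl20, was at 0, and Cxcr4 had 0.0802, 0.0593 and 0.197 FPKM. Of the 5 atypical receptors, which bind chemokines without classical signalling, 2 passed the filter. Ackr3, a scavenger of Cxcl12, had 114 FPKM in localized, 36.1 in invasive and 31.6 in metastatic cells, with log2 differences of -1.63 for invasive and -1.82 for metastatic against localized. Ccrl2, which presents chemerin and is induced by inflammatory signals, had 1.44, 24.9 and 13.3 FPKM, with log2 differences of 3.41 and 2.55 in the same comparisons.

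Of 15 NF-kB subunit and feedback genes past the filter, 3 were higher and 1 lower in the invasive than in the localized library, where 8.78% and 6.07% of all genes past the filter were higher and lower. In the metastatic against the localized library 1 was higher and 4 lower, where 9.08% and 7.29% were. The counts of 1 are near the share over all genes, while the counts of 3 and 4 lie above it. With so few genes this was not tested. The median differences were 0.29 and 0.14, against 0.00 in both comparisons over all genes past the filter. Nfkbia, the inhibitor that NF-kB induces, had 85.1, 237 and 133 FPKM in localized, invasive and metastatic, and Tnfaip3, a feedback deubiquitinase, had 22.8, 61.7 and 39.6 FPKM. Both were called higher in the invasive than in the localized library, and the metastatic library lay between the others. Traf1, an adaptor of TNF receptors, had 11.5, 2.41 and 0.503 FPKM and was lower in each comparison. The inhibitor gene Nfkbie (8.51, 4.02 and 2.33 FPKM) and Icam1 (21.4, 15.5 and 7.25 FPKM), an adhesion molecule induced by NF-kB, were called lower in the metastatic than in the localized library. The subunit genes Rela, with 49.96, 33.2 and 34.3 FPKM, and Nfkb1, with 30.9, 37.9 and 33.5 FPKM, stayed within 2-fold.

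Upstream of NF-kB, 4 of 13 genes past the filter were higher and 0 lower in the invasive than in the localized library, beside 8.78% and 6.07% of all genes past the filter. In the metastatic against the localized library 3 were higher and 1 lower, beside 9.08% and 7.29%, and the median differences were 0.11 and 0.27. The cytokine genes Tnf (0.282, 7.58 and 7.15 FPKM) and Il1a (0.280, 5.997 and 2.63 FPKM) and the TNF receptor Tnfrsf1b (14.2, 47.8 and 53.4 FPKM) were low in the localized library. Il1b and Il17a were at 0 in all 3. The fourth gene called higher in the invasive library was Il17rc, a chain of the interleukin-17 receptor, with 18.6, 38.6 and 32.6 FPKM. Ikbkg, the regulatory subunit of the IkB kinase, had 21.6, 10.4 and 8.09 FPKM and was called lower in the metastatic than in the localized library.

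Of 14 interferon signalling genes past the filter, 5 were higher and 3 lower in the invasive than in the localized library, where 8.78% and 6.07% of all genes past the filter were higher and lower. In the metastatic against the localized library 4 were higher and 5 lower, where 9.08% and 7.29% were. The median differences were -0.19 and -0.27. The receptor chains Ifngr1 (31.6, 172 and 157 FPKM), Ifngr2 (44.4, 128 and 120.4 FPKM), Ifnar1 (5.86, 19.1 and 16.5 FPKM) and Ifnar2 (14.4, 46.1 and 35.0 FPKM) were higher in both comparisons. The transcription factors Stat2 (20.6, 7.74 and 5.32 FPKM) and Irf7 (111, 51.9 and 54.6 FPKM) were lower in both. So were Cxcl10 and Ccl5, which interferon is known to induce. The part of interferon signalling in the Cxcl10 and Ccl5 values was not tested. Irf9 (35.8, 22.9 and 11.3 FPKM) was lower in the metastatic library, and Irf1 (28.0, 59.5 and 41.1 FPKM) higher in the invasive library, each against the localized library. The kinase genes Jak1, Jak2 and Tyk2 and the factor Irf3 lay within 2-fold in every comparison. Ifng was at 0 in every library, and Ifnb1 was at 0 in the localized and invasive libraries and at 0.0389 FPKM in the metastatic library.

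**Figure D5:**
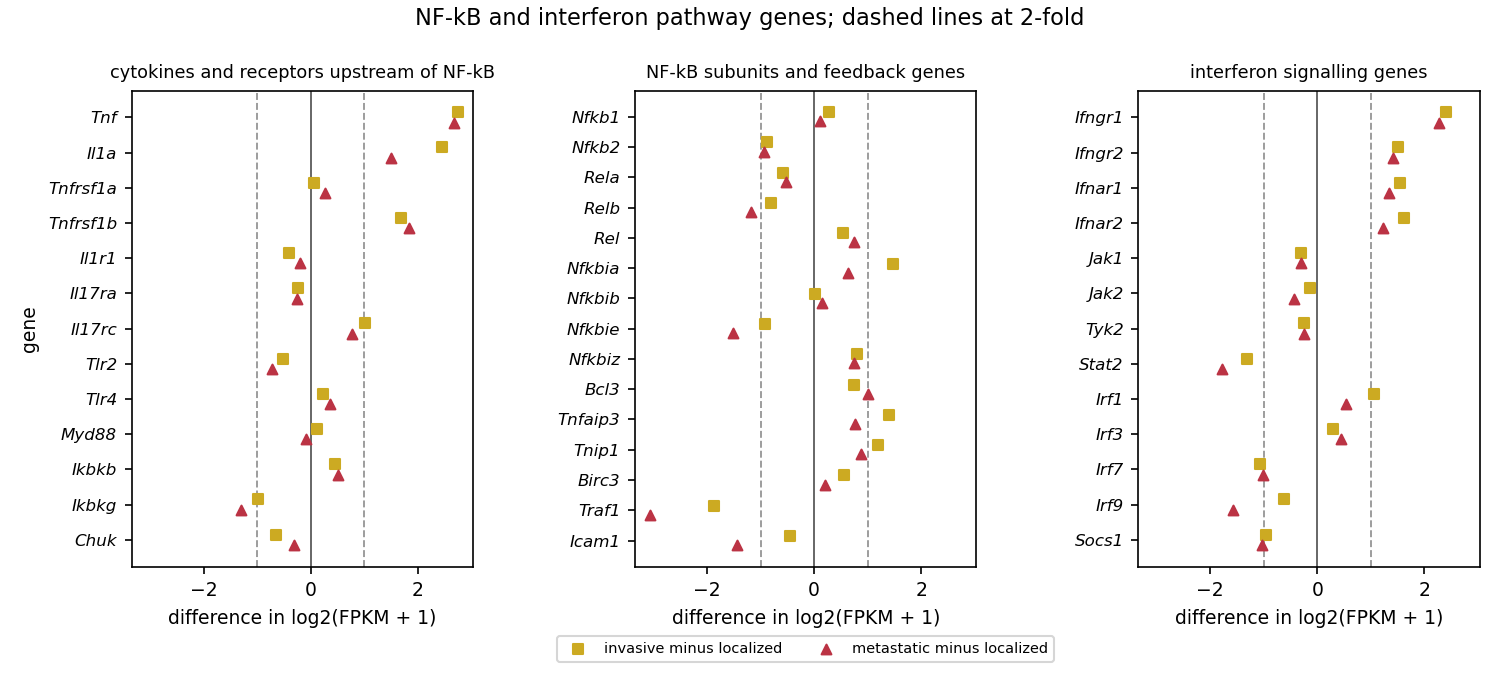
Difference in log2(FPKM + 1) of the invasive and the metastatic from the localized library for most of the genes past the filter in 3 lists, with dashed lines at 2-fold. Tnf, Il1a and the interferon receptor chains lie to the right, while Traf1, Stat2 and Irf7 lie to the left.

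The sheddases Adam10 (55.6, 60.8 and 59.4 FPKM in localized, invasive and metastatic) and Adam17 (26.5, 30.3 and 28.9 FPKM), which release Cx3cl1 and Cxcl16 from the membrane, were nearly level. Mmp2, a gelatinase that trims Ccl7 and Cxcl12, had 17.9, 1.101 and 0.0803 FPKM and was lower in both comparisons with the localized library, while Dpp4, which trims Cxcl10 and Cxcl12, had at most 0.00859 FPKM. Of 6 regulators of cytokine mRNA stability, 3 were higher in the invasive than in the localized library, where 8.78% of all genes past the filter were higher. The 3 were Zfp36 (9.04, 21.9 and 10.0 FPKM), Zfp36l2 (117, 247 and 221 FPKM) and the ribonuclease gene Zc3h12a (28.1, 75.0 and 69.6 FPKM). Of these, Zc3h12a alone was also called higher in the metastatic than in the localized library, with a log2 difference of 1.28, where 9.08% of all genes were higher. Zfp36 was lower in the metastatic than in the invasive library, at -1.06, where 1.67% of all genes were lower.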

How the data were processed

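The authors deposited 1 table of FPKM per gene in which each library has its column. Per the submitters' processing notes, Cufflinks 2.2.1, STAR 2.5.2a and FastQC 0.11.2 were used with GRCm38, with no roles given; read layout, strand and annotation are not given in the sources used here. The lowest value was exactly 0.1 in each column, so 0.1 was taken as added and was subtracted. Of 22784 entries, 27 held spreadsheet date numbers and 23 named short or ribosomal RNAs; these were left out, which left 22734 genes, 11404 of them with a mean of at least 1 FPKM.

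Depth was estimated from whole-fragment steps of FPKM times length in genes with 1 GENCODE M21 transcript over 1500 bases. Fragments per gene used the longest coding transcript and are approximate. PCR copies are not independent molecules, so intervals cover counting error only.

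Groups came from the stage label. Fold calls and the depth estimate were tested on simulated data with counting error only, known lengths and changes planted in well-expressed genes. Such data hold no spread between replicates, so the test says nothing about that spread or about changes of low genes. Chemokine genes, lists and roles were chosen with earlier results of these data known. Every chemokine gene reaching 1 FPKM in a library was named with its values; from other lists, genes past 2-fold were named, at most 4 per list by the size of the difference. Genes outside that rule were chosen after their values were seen. Among them were receptors at or near 0, markers, Rela, Nfkb1, Nfkb2, Rel, Relb, Bcl3, Tnfaip3, Il17rc, Ifngr2, Ifnar1, Irf1, Irf7, Adam10, Adam17 and Dpp4. Overlaps and positions came from GENCODE M21 (GRCm38), and sequences from RefSeq (GRCm38.p6). Python 3.11.15, pandas 2.3.3, numpy 2.4.6 and scipy 1.17.1 were used. Alternative pseudocounts, filters, scalings, folds and the unsubtracted offset were tried. Some items are not reported here.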

Additional observations from a re-analysis of the deposited data

How the results depend on the processing

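With 1 library per stage no replicate could be left out. No paired analysis was possible because each stage has 1 library. The calls against the localized library were Ccl20, Cxcl3, Cxcl5 and Cxcl16 higher and Ccl2, Ccl5, Ccl7, Ccl25, Cxcl10 and Cxcl12 lower, in both comparisons, and they were the same genes without the filter, with the filter on the highest library, after median-ratio scaling and with 0.1 left in. With a pseudocount of 5, Ccl25 was no longer called in either comparison. At 4-fold, the higher genes were 2 in each comparison with the localized library, Ccl20 and Cxcl5. The lower genes at 4-fold were 4 for invasive, without Ccl2 and Ccl25, and 5 for metastatic, without Ccl25. For metastatic against invasive, genes higher numbered 1 (Ccl27a, against 0) with a pseudocount of 0.1, after scaling to equal sums and at 1.5-fold. Genes lower in that comparison numbered 3 with a pseudocount of 0.1, 5 at 1.5-fold and 0 at 4-fold, against 1.

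With a pseudocount of 0.1, genes lower in the invasive than in the localized library numbered 9, with Ccl8, Ccl9 and Ccl27a added, and after scaling to equal sums 7, with Ccl27a added. Of 54 differences of named chemokine genes, 6 changed side of the 2-fold line with a pseudocount of 0.1, 2 with 5 and 2 after scaling to equal sums; 0 changed sign among those called. The summed chemokine values for localized, invasive and metastatic were 2550.4, 5581 and 4882 after scaling to equal sums, 1457, 3199.9 and 2753 after median-ratio scaling, and 1463.5, 3215 and 2762 with 0.1 left in. Scaling moved the median difference of all genes by at most 0.02 on the log2 scale. At this depth, chemokine values below 0.1 FPKM rest on an estimated 14 fragments or fewer.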
